A study of Homo sapiens with 30 samples.

Results

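The genes described here encode the subunits of the mitochondrial respiratory chain and of ATP synthase that are made from nuclear DNA. They were chosen by name and gene type: every protein-coding NDUFA, NDUFAB, NDUFB, NDUFC, NDUFS and NDUFV gene, SDHA to SDHD, CYC1 and the UQCR genes, the COX4I to COX8 genes, and the ATP5F1, ATP5M and ATP5P genes, without the NDUFAF assembly factors. Of the 60107 genes in the count table, 87 were members. Complex I held 37 of them, complex II 4, complex III 10, complex IV 18 and complex V 18. NDUFA4 was counted with complex IV, where its protein is known to sit.

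The cells were HepG2, an established human liver cancer line. Each culture received 1 of 5 oligonucleotides by transfection. The control for inhibitors is named IC here and the inhibitor directed at miR-200c-3p I200c, while MC is the control for mimics, M222 imitates miR-222-5p and M512 imitates miR-512-3p. The multikinase inhibitor sorafenib at 10 µM, or its solvent DMSO, was added 24 h after transfection. It stayed for 6 h in the IC and I200c cells and for 24 h in those with MC, M222 or M512. This gave 10 groups of 3 libraries, 30 in all. All groups were transfected, so no library shows untransfected cells. The labels do not say whether the 3 libraries of a group came from separate cultures, although the study calls its replicates independent. The p-values below measure the spread between these libraries.

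Electrons from NADH enter the chain at complex I and electrons from succinate at complex II, and both pass through ubiquinone to complex III, cytochrome c and complex IV. Complexes I, III and IV pump protons out of the mitochondrial matrix, and complex V lets them back in to make ATP. All subunits of complex II and most subunits of the other complexes are nuclear genes, whereas a small set of core subunits is made from mitochondrial DNA (mtDNA). Liver cells are rich in mitochondria, and sorafenib is known to act on mitochondria as well as on kinases.

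The total count was 3938764 to 9657063 per library. Levels are given as CPM, counts in each 1000000 of a library, and each library read transcripts near their 3′ end, so that a transcript gives about the same number of reads whatever its length. A count of 0 allows up to 0.311 to 0.762 CPM, taking 3 counts as the upper limit, which covers counting error only. All 9 hepatocyte markers examined were present, with ALB at 2053 to 5207 CPM, whereas DCN, LUM, VWF, KDR and CD3E had no count in any library. Low counts were present for 3 of 5 fibroblast and stellate markers, with COL1A1 at up to 11.9 CPM and PDGFRB at up to 5.83 CPM. The same held for 2 of 4 endothelial markers, with PECAM1 at up to 3.08 CPM. Of 5 immune markers, 4 had a count and LYZ reached 309 CPM. The libraries differed in ways that touched the members: across 78 members with a mean of at least 10 CPM, deviations from the group mean followed the GC content of the last 300 bases of the transcript with a Spearman rho beyond 0.5 in either direction in 6 of 30 libraries (a description, without a test). The rho over 7953 genes had the same sign in each of these libraries, at 0.14 to 0.389 in size. The MC DMSO library 3 was among these libraries (rho = 0.578 for the members and 0.389 for the 7953 genes), and in it NDUFB3 had 1.00 CPM and SDHB 3.01 CPM, against 25.96 and 29.4 CPM for NDUFB3 and 17.1 and 18.9 CPM for SDHB in the other two MC DMSO libraries.

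The members took 1.27 to 1.70% of all counts, and genes in mtDNA took 17.5 to 26.8%. The members of each complex were also summed. Complex V was highest, at 4764 to 6526 CPM, followed by complex I at 3753 to 4990 CPM, complex IV at 2084 to 3133 CPM and complex III at 1545 to 2237 CPM. Complex II was lowest and varied most, from 79.7 to 281 CPM, a ratio of 3.53 between the highest and the lowest library against 1.33 to 1.503 for the other complexes.

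**Figure D1:**
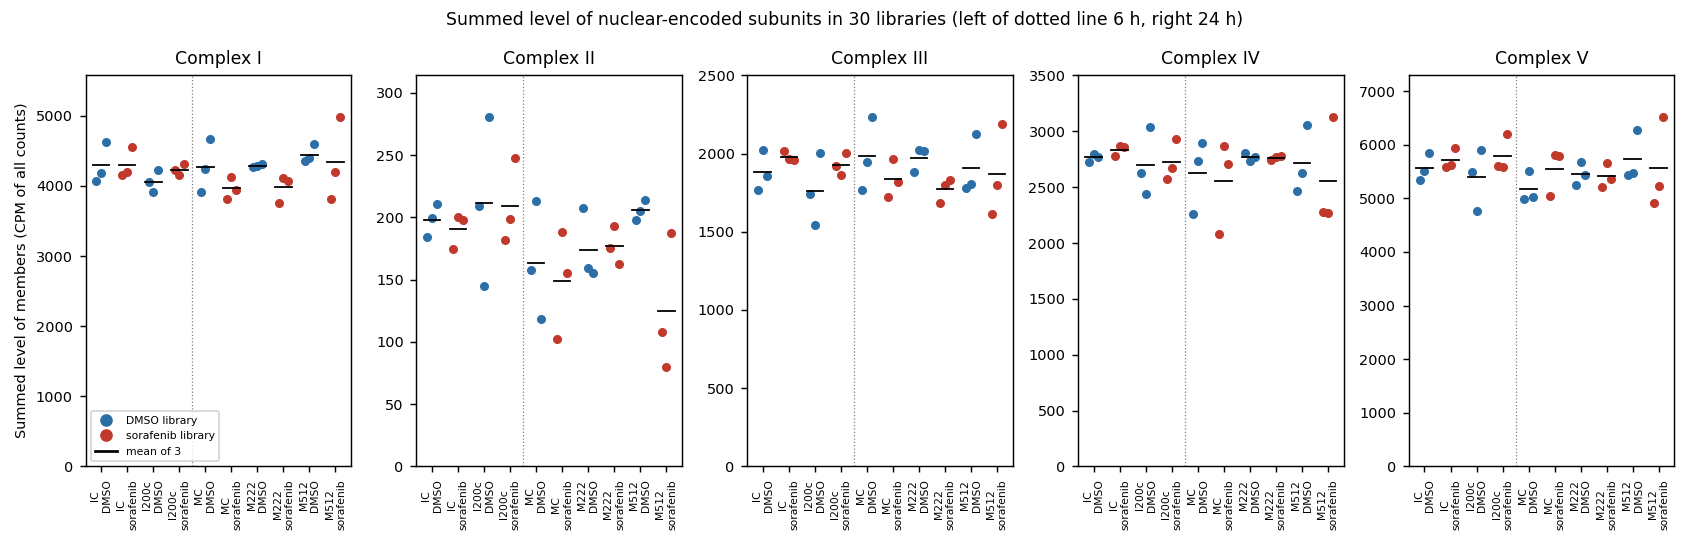
Summed level (CPM of all counts) of the member genes of each complex in each of the 30 libraries, by group; each point is a library and each line the mean of 3. Complexes I, III, IV and V stayed within a ratio of 1.33 to 1.503 across libraries, whereas complex II spanned 79.7 to 281 CPM and was lowest in M512 with sorafenib.

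Within each complex the genes lay far apart. In the 15 DMSO libraries the median level in complex I was 8.95 CPM for NDUFA3, a small accessory subunit and the lowest of the complex, and 344 CPM for NDUFAB1, the mitochondrial acyl carrier protein. In complex II it ran from 5.03 CPM for SDHD to 91.4 CPM for SDHC, both membrane anchors. UQCRQ led complex III at 423 CPM and COX4I1 led complex IV at 422 CPM. Complex V held the highest members of all, ATP5MC3, which encodes the proton-carrying c subunit, at 923 CPM, ATP5MG (subunit g) at 906 CPM and ATP5F1E (subunit epsilon) at 748 CPM. Its lowest were ATP5MGL, a close copy of ATP5MG, at 5.14 CPM and ATP5F1D (subunit delta) at 11.7 CPM.

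Of the 87 members, 6 had no count in any of the 30 libraries. All 6 are complex IV isoforms that are known from muscle, lung or germ cells: COX4I2, COX6A2, COX6B2, COX7A1, COX7B2 and COX8C. Their common partners were all present in DMSO: COX4I1 at 422 CPM, COX6A1 at 82.1 CPM, COX6B1 at 271 CPM, COX7A2 at 217 CPM, COX7B at 146 CPM and COX8A at 296 CPM. The set of complex IV isoforms that was counted was therefore the one found in most tissues. Genes with low counts were left out of the tests, which kept 80 members at 6 h and 81 at 24 h, the additional one being UQCRHL, a close copy of UQCRH, at 0 to 2.67 CPM.

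Tests were made with the quasi-likelihood test of edgeR, and adjusted p is the Benjamini-Hochberg value over all genes tested. A gene passed when it was under 0.05. A fold change is given on the log2 scale with its standard error (SE) and 3 libraries per group. All levels in single libraries below are CPM scaled with TMM factors, within the 6 h libraries and within the 24 h libraries apart.

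At 6 h with sorafenib no member passed in either transfection. In IC, 0 of 80 members passed, against 0.0314% of all genes, with 0 members at an unadjusted p under 0.05 (3.77% of all genes) and 0 called by DESeq2 (0.275% of all genes). The 95% interval of the change lay within 1 log2 unit of 0 for 74 of the 80 members. The member with the smallest p was COX6B1, a complex IV subunit facing the intermembrane space. COX6B1 had 232, 259 and 216 CPM with DMSO and 269, 289.7 and 275 CPM with sorafenib. The groups did not overlap, but the change of 0.24 had an edgeR adjusted p of 0.999.

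In I200c at 6 h, 0 of 80 members passed, against 2.39% of all genes, with 8 members higher and 1 lower at an unadjusted p under 0.05 (11.2% of members against 15.1% of all genes), and 0 called by DESeq2 (4.25% of all genes). The smallest p belonged to ATP5ME, subunit e of ATP synthase, which lies in the membrane part where 2 synthases meet. ATP5ME had 183, 247 and 169.5 CPM with DMSO and 284, 271 and 288 CPM with sorafenib. The sorafenib libraries were all higher, by 0.49 on the log2 scale (edgeR adjusted p = 0.114). Without I200c DMSO library 2, the highest of its group, the change was 0.69 (edgeR adjusted p = 0.0143), and 2 members passed. The share over all genes is not given for that fit. Leaving out I200c DMSO library 3 instead gave a change of 0.39 for ATP5ME (edgeR adjusted p = 0.283).

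At 24 h sorafenib changed a few members, and not in one direction. In MC only NDUFA5 passed, and it rose. In M222 NDUFA5 rose and ATP5MC1 fell. In M512 NDUFA5 and NDUFA13 rose, and NDUFA8, NDUFS1 and SDHC fell. The 3 groups of DMSO libraries were separate, so that these comparisons share no libraries.

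These counts were read against those over all genes. In MC 1 of 81 members passed against 2.69% of all genes, in M222 2 of 81 against 4.67%, and in M512 5 of 81 against 10.2%, by edgeR. With the library number as a block, M512 had 10 of 81 members (12.3%) against 12% of all genes. The members' share was thus near or below that of all genes, which says nothing particular about them. The median change over the members was 0.0849 for MC, −0.00436 for M222 and 0.172 for M512, beside −0.0145, −0.035 and −0.0303 over all genes. Scaled by total counts in place of TMM factors, the medians of all genes were −0.122, −0.141 and −0.219 and those of the members −0.0317, −0.109 and −0.00514, so that the sign of the members' median in MC and M512 depends on the scaling. With that scaling, genes higher with sorafenib made up a smaller part of all called genes, in MC from 68.3% to 49%, with M222 from 64.5% to 46.9% and with M512 from 53.9% to 29.9%. In M512, 11 members had all sorafenib libraries above all DMSO libraries and 5 had them all below, against 13.5% and 16.5% of all genes. Markers moved in the same libraries. The 9 hepatocyte markers summed to 18430 to 19400 CPM in M512 DMSO and 10150 to 11440 CPM in M512 sorafenib, with 15610 to 16200 and 9843 to 12600 CPM in MC and 13480 to 16390 and 8079 to 11090 CPM in M222. The 5 immune markers, nearly all LYZ, summed to 249 to 314 CPM in M512 DMSO and 104 to 188 CPM in M512 sorafenib, with CD3E at 0, whereas they overlapped in MC (109 to 144 and 96.4 to 160.5 CPM) and M222 (157.5 to 250.5 and 146 to 187 CPM). In M512 the 5 fibroblast and stellate markers summed to 12.1 to 13.9 and 0 to 3.73 CPM, with DCN and LUM at 0. Their part in the members' changes was not tested.

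**Figure D2:**
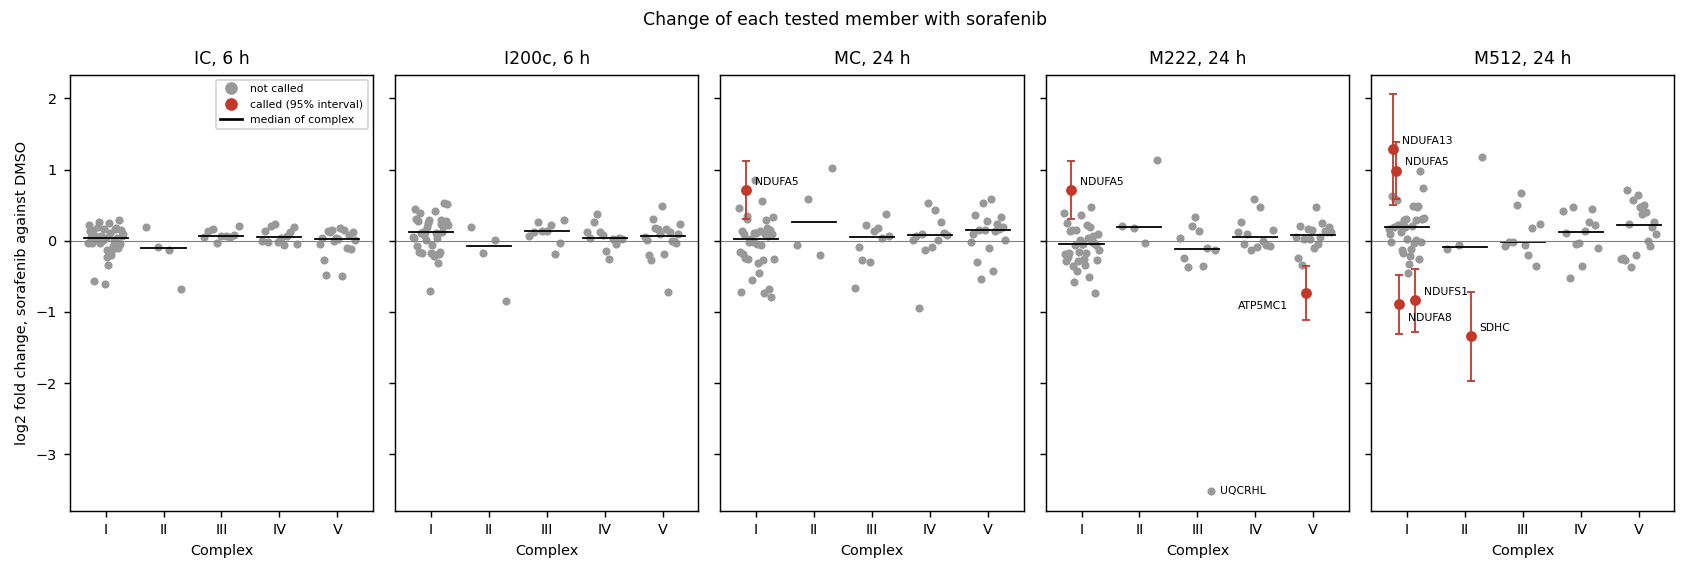
Log2 fold change of sorafenib against DMSO for each tested member, by complex and transfection (3 libraries per group, edgeR), with a line at the median of each complex. Members that passed are red, named and drawn with their 95% interval: NDUFA5 in all 3 transfections at 24 h, ATP5MC1 in M222, and NDUFA8, NDUFA13, NDUFS1 and SDHC in M512. The grey point at −3.51 in M222 is UQCRHL, at 0 to 2.67 CPM.

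In complex I, NDUFA5 was the member that passed in each of the 3 transfections at 24 h. NDUFA5 (ENSG00000128609, GRCh38 chr7:123536997-123557904, minus strand) is an accessory subunit of the arm that extends into the matrix. With MC it had 61.2, 67.9 and 53.6 CPM in DMSO and 112, 74.2 and 112.5 CPM in sorafenib. With M222 it had 53.4, 66.3 and 63.8 CPM in DMSO and 95.5, 97.9 and 107 CPM in sorafenib. With M512 it had 59.97, 65.1 and 63.98 CPM in DMSO and 108, 140.5 and 126 CPM in sorafenib. In all 3 transfections every sorafenib library was above every DMSO library.

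The rise of NDUFA5 was 0.71 in MC (SE 0.20, edgeR adjusted p = 0.0461), 0.71 in M222 (SE 0.20, adjusted p = 0.0328) and 0.99 in M512 (SE 0.20, adjusted p = 0.00149). The call in M512 stayed whichever library was left out. In MC it was lost without DMSO library 1 (0.74, edgeR adjusted p = 0.136) or 3 (0.62, 0.264) or sorafenib library 1 (0.64, 0.187) or 3 (0.63, 0.249). In M222 it was lost without DMSO library 1 (0.63, edgeR adjusted p = 0.137) or 3 (0.78, 0.0887) or sorafenib library 1 (0.78, 0.0728) or 3 (0.70, 0.119). Scaled by total counts NDUFA5 no longer passed in MC (0.60, edgeR adjusted p = 0.0845) or M222 (0.61, 0.0587). The call in MC was also lost with RLE scaling, without the low-count filter and in a fit of that comparison alone. In M222 the call was also lost without that filter. At 6 h the change of NDUFA5 was 0.06 in IC and 0.39 in I200c (edgeR adjusted p = 0.277 in I200c). The difference between the 24 h and the 6 h change in the control transfections was 0.63 (edgeR adjusted p = 0.349), and time cannot be told apart there from the kind of control oligonucleotide.

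NDUFS1 (ENSG00000023228, chr2:206114817-206159509, minus strand) is the large iron-sulfur core subunit that takes part in the passage of electrons from NADH. With MC it had 99.3, 107 and 92.9 CPM in DMSO and 46.9, 75.8 and 57.8 CPM in sorafenib. With M222 the values were 72.4, 82.5 and 71.8 CPM in DMSO and 39.8, 67.8 and 51.5 CPM in sorafenib. With M512 they were 87.2, 90.6 and 100.1 CPM in DMSO and 56.1, 41.8 and 57.3 CPM in sorafenib. Sorafenib libraries lay below DMSO libraries without overlap in all 3 transfections.

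By edgeR NDUFS1 passed in M512, where it fell by 0.84 (SE 0.22, edgeR adjusted p = 0.0125), and not in the other two. That call was lost without M512 DMSO library 3 (−0.75, edgeR adjusted p = 0.0707) or M512 sorafenib library 2 (−0.71, 0.0631). In MC the change was −0.73 (edgeR adjusted p = 0.0651) and in M222 −0.51 (0.184). In MC it was called by DESeq2 (−0.76, adjusted p = 0.0157) and by edgeR with the block (−0.75, adjusted p = 0.0419) or total counts (−0.83, adjusted p = 0.0459). At 6 h its level in IC was 80.6 to 85.1 CPM with DMSO and 67.8 to 85.6 CPM with sorafenib, and the groups overlapped.

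NDUFA8 (ENSG00000119421, chr9:122144058-122159779, minus strand) is an accessory subunit with paired cysteines that faces the intermembrane space. With M512 it had 88.6, 80.4 and 107 CPM in DMSO and 44.5, 45.5 and 58.3 CPM in sorafenib. It fell by 0.90 (SE 0.20, edgeR adjusted p = 0.00448), and it passed whichever library was left out. In M222 it had 90.1, 102 and 78.6 CPM in DMSO and 53.5, 74.9 and 53.7 CPM in sorafenib, and in MC 90.7, 102 and 100.9 CPM and 82.7, 90.2 and 72.4 CPM. The sorafenib libraries were lower in all 3 transfections, but the changes of −0.58 in M222 (edgeR adjusted p = 0.100) and −0.26 in MC (0.553) did not pass. DESeq2 called NDUFA8 in M222 (−0.59, adjusted p = 0.0425). The change in M512 differed from that in MC by −0.64, which did not pass (edgeR adjusted p = 0.976).

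NDUFA13 (ENSG00000186010, chr19:19515736-19529054, plus strand), an accessory subunit also known for a part in cell death, was the one other complex I member that rose. With M512 it had 23.2, 20.4 and 14.4 CPM in DMSO and 34.2, 45.5 and 61.3 CPM in sorafenib, all higher. The rise was 1.28 (SE 0.38, edgeR adjusted p = 0.0290). This is the least firm of the 5 calls in M512. It was lost without M512 DMSO library 1 (1.45, edgeR adjusted p = 0.0531), 2 (1.35, 0.0724) or 3 (1.14, 0.12) or M512 sorafenib library 2 (1.31, 0.0525) or 3 (1.04, 0.112), and when scaled by total counts (1.105, 0.0627). The 3′ end of NDUFA13 also lies under YJEFN3 and a read-through gene on the same strand, so its counts are uncertain. With MC and M222 the values of the sorafenib and DMSO libraries overlapped, at 15.1 to 42.6 CPM for MC and 15.8 to 37.7 CPM for M222.

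In complex II SDHC fell with M512. SDHC (ENSG00000143252, chr1:161314381-161363206, plus strand) anchors the enzyme in the membrane, where it holds heme and binds ubiquinone. With M512 it had 98.2, 96.1 and 111 CPM in DMSO and 44.3, 17.9 and 57.7 CPM in sorafenib, without overlap. It fell by 1.34 (SE 0.30, edgeR adjusted p = 0.00501), the largest change among the called members in size, and passed whichever library was left out. Without M512 sorafenib library 2, the lowest, it fell by 0.99.

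With MC and M222, SDHC did not separate the treatments. It had 78.6, 95.8 and 60.4 CPM in DMSO and 45.4, 93.6 and 64.8 CPM in sorafenib with MC, and 97.4, 70.04 and 80.7 CPM and 84.9, 88.5 and 68.98 CPM with M222. The change in M512 differed from that in MC by −1.14, which did not pass (edgeR adjusted p = 0.902). The complex II sum with M512 was 197.6 to 214 CPM in DMSO and 79.7, 108 and 188 CPM in sorafenib, and SDHC was the one of its 4 genes that passed. M512 sorafenib library 2 was low in further genes of the complex, with SDHB, the iron-sulfur subunit, at 4.41 CPM against 16.3 and 53.2 CPM in the other two libraries.

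SDHD, the other anchor, stayed at low levels. It had 4.41, 1.94 and 1.29 CPM in MC DMSO and 5.87, 5.92 and 4.05 CPM in MC sorafenib. In M222 it had 9.16, 3.56 and 1.87 CPM in DMSO and 17.1, 9.81 and 5.83 CPM in sorafenib. The changes of 1.02 in MC (SE 0.72) and 1.14 in M222 (SE 0.69) did not pass (edgeR adjusted p = 0.507 and 0.393). They moved with single libraries, to 1.74 without MC DMSO library 1 and 0.68 without MC DMSO library 3, and to 2.03 without M222 DMSO library 1 and 0.68 without M222 sorafenib library 1. The 3′ ends of SDHD and SDHA each lie under another annotated gene on the same strand. Their counts, and with them the complex II sum, are therefore uncertain.

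In complex III 0 of 10 members passed in edgeR for any of the 3 transfections at 24 h. An unadjusted p under 0.05 was reached by 0 in MC, 1 lower in M222 and 2 higher in M512, and DESeq2 called UQCRB alone, in M512. Of all genes 16.8%, 19.1% and 24.2% had such a p in MC, M222 and M512. Of 13244 genes tested, DESeq2 called 409 higher and 320 lower in MC, 582 and 446 in M222, and 965 and 855 in M512. UQCRB, the ubiquinone-binding subunit, had 199, 199 and 173 CPM in M512 DMSO and 229.6, 270.2 and 307 CPM in M512 sorafenib. The libraries did not overlap, and the change was 0.50 (SE 0.17, edgeR adjusted p = 0.0578). UQCR11, a small subunit, had 233, 253 and 292 CPM in MC DMSO and 206, 227 and 212 CPM in MC sorafenib. In M222 it had 257, 263 and 270.2 CPM and 174, 216 and 224 CPM. Its changes were −0.27 in MC (edgeR adjusted p = 0.441) and −0.36 in M222 (0.233).

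In complex IV 0 of 12 tested members passed in edgeR for any of the 3 transfections, and DESeq2 called 0. An unadjusted p under 0.05 was reached by 1 higher and 1 lower in MC, 2 higher in M222 and 1 higher in M512. The shares of all genes at such a p and the DESeq2 calls over all genes are those given for complex III. COX6C, an accessory subunit, had 229, 270.0 and 152 CPM in MC DMSO and 294, 304 and 344 CPM in MC sorafenib. In M222 it had 247, 233 and 193 CPM in DMSO and 363, 347 and 304 CPM in sorafenib. Sorafenib libraries were all higher in both transfections, with changes of 0.53 (SE 0.25, edgeR adjusted p = 0.268) and 0.59 (SE 0.25, 0.179). COX6A1 in M512 overlapped between treatments, with 71.1, 68.1 and 77.03 CPM in DMSO and 67.9, 120.5 and 113 CPM in sorafenib.

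In complex V ATP5MC1 fell with M222. ATP5MC1 (ENSG00000159199, chr17:48892765-48895871, plus strand), ATP5MC2 and ATP5MC3 encode the same mature c subunit and differ in the leader that takes it into mitochondria. ATP5MC1 had 319.5, 344 and 364 CPM in M222 DMSO and 179, 223 and 215 CPM in M222 sorafenib. It fell by 0.74 (SE 0.19, edgeR adjusted p = 0.0200). The call was lost without M222 DMSO library 3 (−0.66, edgeR adjusted p = 0.116) or M222 sorafenib library 1 (−0.61, 0.155) or 3 (−0.74, 0.08). In MC it had 314, 311 and 427 CPM in DMSO and 249.8, 279 and 194.5 CPM in sorafenib (−0.54, edgeR adjusted p = 0.113), and in M512 381, 352 and 344.5 CPM and 299, 308 and 229 CPM (−0.37, 0.225). All sorafenib libraries were thus below all DMSO libraries in each transfection. ATP5MC1 was also called in MC by DESeq2 (−0.57, adjusted p = 0.0402) and by edgeR with total counts (−0.65, adjusted p = 0.0489), and in M512 by edgeR with total counts (−0.57, adjusted p = 0.0382).

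ATP5MC2 had positive changes that did not pass. It had 305, 268 and 272 CPM in M512 DMSO and 432, 455 and 367 CPM in M512 sorafenib, a change of 0.57 (SE 0.19, edgeR adjusted p = 0.0529). In MC it had 313, 283 and 179 CPM in DMSO and 382, 329 and 409.5 CPM in sorafenib (0.53, edgeR adjusted p = 0.126). In M222 it had 376, 349 and 407.5 CPM in DMSO and 448, 377.5 and 442 CPM in sorafenib, which overlapped. ATP5MC3 had 782, 902 and 659 CPM in MC DMSO and 789, 933 and 888 CPM in MC sorafenib, which overlapped.

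The share of ATP5MC1 in the counts of the 3 c subunit genes was 25.6% ± 7.09 (SD, n = 3) in MC DMSO and 16.3% ± 2.79 in MC sorafenib. With M222 it was 21.5% ± 1.08 and 13.6% ± 1.48, and with M512 22.8% ± 2.92 and 18.3% ± 3.08. The libraries of the treatments did not overlap in MC and M222 and did overlap in M512. At 6 h the group means of this share were 17.6 to 19.96%. The 3 genes together stayed at group means of 1390 to 1593 CPM at 24 h, so their sum moved less than the make-up of the sum. The share restates counts tested above and was given no test of its own. The 3′ end of ATP5MC1 lies over a pseudogene of SUMO2 on the other strand, and the handling of strand in the counting is not given in the sources used here.

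**Figure D3:**
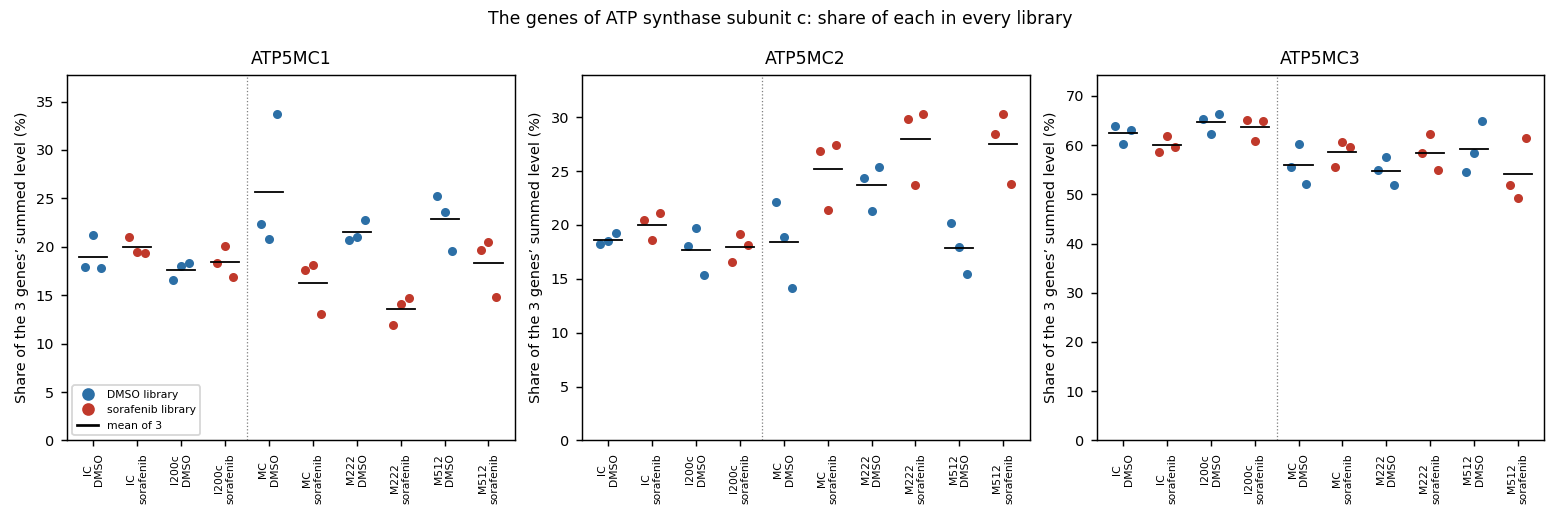
Share (percent) of ATP5MC1, ATP5MC2 and ATP5MC3 in their summed CPM, in each library by group; each point is a library and each line the mean of 3. In each of the 3 transfections at 24 h the mean ATP5MC1 share was lower with sorafenib, with group means from 21.5 to 25.6% in DMSO and from 13.6 to 18.3% in sorafenib.

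Of the other complex V members, ATP5MG had 716, 852 and 629.8 CPM in MC DMSO and 1116, 997 and 1189 CPM in MC sorafenib. Its sorafenib libraries were all higher, by 0.59 on the log2 scale (SE 0.20, edgeR adjusted p = 0.101). In M512 the smallest p among the members short of the threshold belonged to ATP5MC2, UQCRB and ATP5MF (subunit f, 0.48, edgeR adjusted p = 0.0673). DESeq2 called 9 of 81 members in M512 (11.1%, against 13.7% of all genes), 6 higher and 3 lower, the additional ones being UQCRB, ATP5MF, ATP5MC2 and ATP5MJ.

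**Figure D4:**
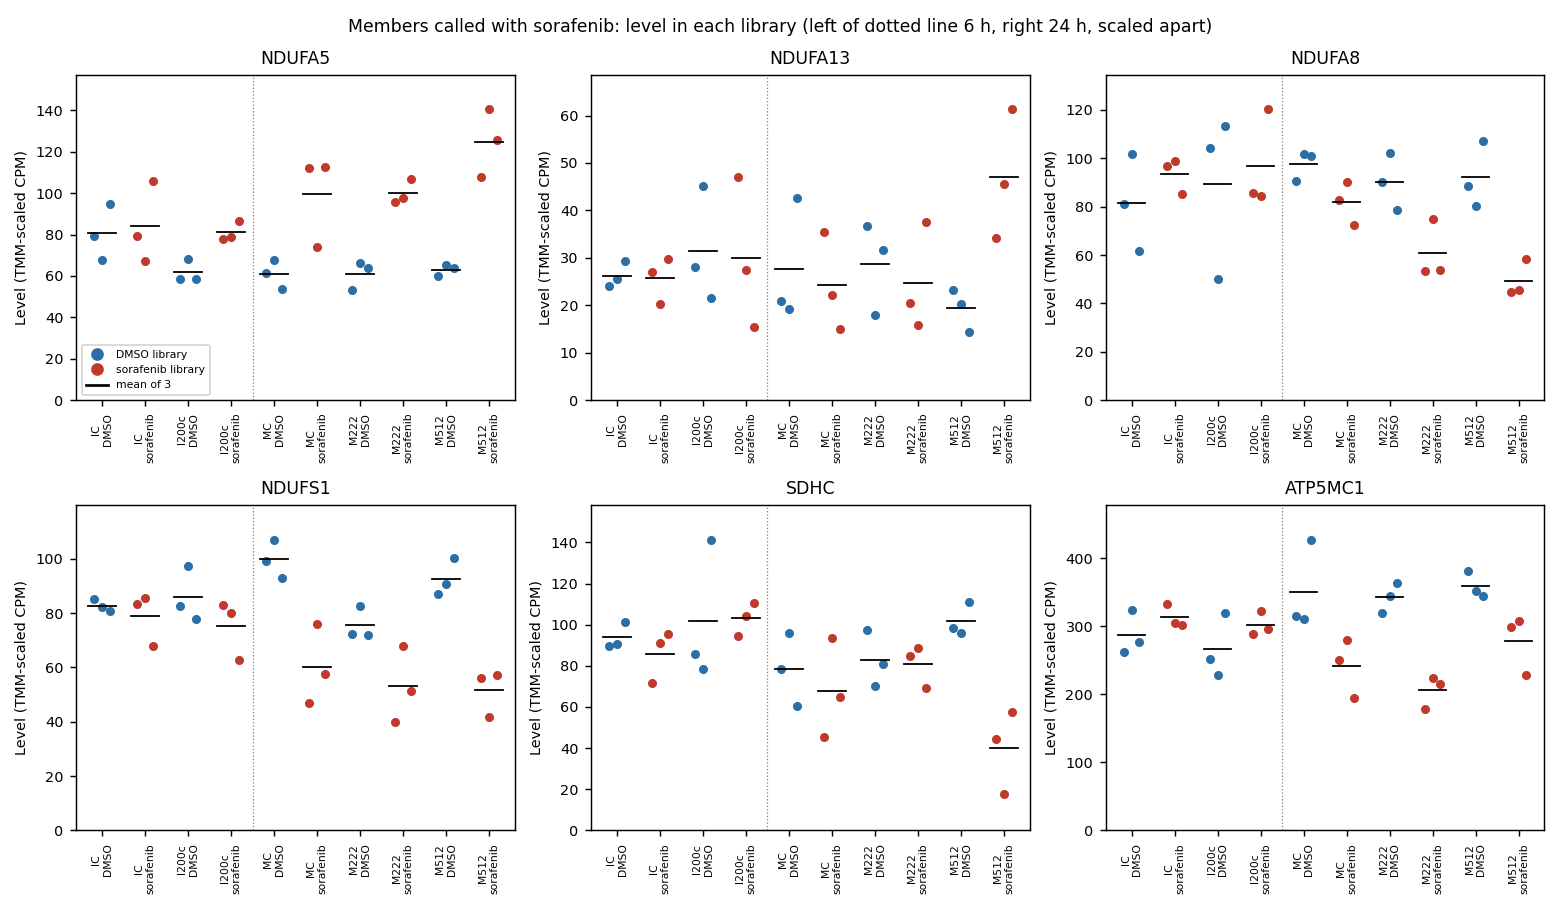
Level (CPM, TMM-scaled) of the 6 members called with sorafenib in any transfection, in each library (points) with the mean of 3 (lines); the 6 h and 24 h libraries were scaled apart. At 24 h NDUFA5 lay between 53.4 and 67.9 CPM in all DMSO libraries and between 74.2 and 140.5 CPM in all sorafenib libraries.

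The data set limits on what was missed. At 24 h the 95% interval of the sorafenib change lay within 1 log2 unit of 0 for 60 of 81 members in MC, 63 in M222 and 54 in M512. NDUFB3, an accessory subunit of the membrane arm of complex I, varied most within groups (SD of log2 CPM 1.1), followed by SDHB (0.745), ATP5F1D (0.631) and NDUFS7 (0.597), and changes of these genes were the hardest to see. UQCRH (0.117), COX8A (0.121) and ATP5MJ (0.128) varied least. The median SD was 0.248 over 78 members and 0.307 over 7953 genes. Both sets had a mean of at least 10 CPM but were not matched for level.

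The response to sorafenib was compared between transfections by interaction terms. By edgeR, 0 of 80 members passed for I200c against IC (0% of all genes, with 0 members and 3.15% of all genes at an unadjusted p under 0.05), 0 of 81 for M222 against MC (0% of all genes, with 0 members and 1.94% of all genes) and 0 of 81 for M512 against MC (0% of all genes, with 3 members higher and 2 lower, 6.17% against 4.96% of all genes). DESeq2 called 0 members in all 3 (0.0314%, 0.00755% and 0.113% of all genes). The smallest p belonged to ATP5ME for I200c (0.46, edgeR adjusted p = 0.9998), to NDUFB8, a membrane arm subunit of complex I, for M222 (−0.48, 1) and to NDUFA13 for M512 (1.47, 0.865). A member that passed in one transfection and not in another was therefore not shown to differ between them. For the control transfections at 24 h against 6 h, 0 of 80 members passed against 0.128% of all genes (edgeR, with 4 higher and 3 lower at an unadjusted p under 0.05, 8.75% of members against 13.5% of all genes, and 0 called by DESeq2, against 2.07%). There the smallest p belonged to ATP5MC1 (−0.70, edgeR adjusted p = 0.188).

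The oligonucleotides act through short seeds. A microRNA guides silencing of messages whose 3′ untranslated region (3′ UTR) pairs with its seed, bases 2 to 8, and the mature sequences are shown because they set which sites were searched for among the members. They are from RefSeq on GRCh38, 5′ to 3′, with the seed in capitals:
miR-200c-3p (chr12:6963742-6963764, plus strand): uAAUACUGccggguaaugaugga
miR-222-5p (chrX:45747073-45747094, minus strand): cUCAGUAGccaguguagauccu
miR-512-3p (chr19:53666729-53666750 and chr19:53669213-53669234, plus strand): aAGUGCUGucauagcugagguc
The level of these microRNAs is not measured by such libraries, so transfection could not be checked on them.

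Seed matches were counted in the annotated 3′ UTRs. Of 86 members with a 3′ UTR in the annotation, 9 (10.5%) held CAGTATT, the match to miR-200c-3p, against 19.1% of 11194 genes. CTACTGA, the match to miR-222-5p, was in 8 (9.30%) against 10.5%, and CAGCACT, the match to miR-512-3p, in 11 (12.8%) against 23.0%. The median 3′ UTR was 190.5 bases long for the members and 1319 bases for all genes, and a longer one holds more matches. A match is a description of letters and not a shown site, and the annotated 3′ UTR need not be the one used in HepG2.

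With the inhibitor of miR-200c-3p no member passed against IC. With DMSO 0 of 80 members passed for I200c against IC, against 0.00785% of all genes, with 7 members lower and 0 higher at an unadjusted p under 0.05 (8.75% of members against 5.27% of all genes) and 0 called by DESeq2 (0.0393% of all genes). The smallest p belonged to NDUFA11, a membrane arm subunit, with 89.9, 100.7 and 86.3 CPM in IC DMSO and 52.9, 67.4 and 78.2 CPM in I200c DMSO. The I200c libraries were all lower, by 0.48 on the log2 scale (edgeR adjusted p = 0.890). With sorafenib 0 of 80 passed, against 0% of all genes, with 0 at an unadjusted p under 0.05 (2.08% of all genes) and 0 by DESeq2 (0% of all genes). There COX7A2L, a subunit-like protein that joins complexes III and IV, had 113, 129 and 109.8 CPM in IC and 85.8, 90.6 and 126 CPM in I200c, which overlapped (−0.22, edgeR adjusted p = 0.9997).

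For the mimics the comparisons with MC gave no called member, but 3 members stood out in the values: COX7C, ATP5PB and COX7B. COX7C and COX7B had the smallest p of their comparisons, and ATP5PB was named after its values were seen. M222 and M512 were each set against the same MC libraries, so their differences share those libraries. By edgeR 0 of 81 members passed for M222 against MC with DMSO (0% of all genes) and with sorafenib (0% of all genes). At an unadjusted p under 0.05 there were 2 higher and 2 lower with DMSO (4.94% of members against 5.52% of all genes) and 1 higher and 2 lower with sorafenib (3.7% against 5.97%), and DESeq2 called 1 and 0 (0.249% and 0.181% of all genes). For M512 against MC 0 of 81 passed with DMSO (0.634% of all genes) and 0 with sorafenib (0.385% of all genes). At an unadjusted p under 0.05 there were 3 higher and 1 lower with DMSO (4.94% against 10.3%) and 9 higher and 3 lower with sorafenib (14.8% against 11.1%), and DESeq2 called 2 and 3 (1.75% and 1.79% of all genes).

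COX7C (ENSG00000127184, chr5:86617928-86620962, plus strand) is a small membrane subunit of complex IV. It had 86.3, 173 and 93.7 CPM in MC DMSO, 285, 292 and 260.2 CPM in M222 DMSO and 206, 230.1 and 253 CPM in M512 DMSO. With sorafenib it had 97.5, 229 and 96.7 CPM in MC, 254, 280.0 and 268 CPM in M222 and 247, 349 and 343 CPM in M512. All mimic libraries were above all MC libraries with the same treatment, and MC library 2 lay apart from the other MC libraries with both treatments.

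The difference of COX7C from MC was 1.25 in M222 with DMSO (SE 0.28, edgeR adjusted p = 0.153), 0.92 in M222 with sorafenib (0.448), 0.97 in M512 with DMSO (0.127) and 1.15 in M512 with sorafenib (0.0658). Without MC library 2 of the same treatment, the MC library closest to the mimics, all 4 passed, at 1.65 (edgeR adjusted p = 0.0361), 1.49 (0.018), 1.37 (0.0176) and 1.71 (0.000675). Leaving out MC library 1 instead gave 1.08 in M222 with DMSO, 0.75 in M222 with sorafenib and 0.97 in M512 with sorafenib. The edgeR adjusted p rose to 0.87 without M222 DMSO library 1 (M222 with DMSO) and to 0.257 without MC sorafenib library 3 (M512 with sorafenib). For M222 against MC with DMSO, same-numbered libraries correlated weakly (0.136, 0.147 and 0.120). A fit with the library number as a block over all libraries at 24 h called COX7C alone among the members in this comparison (1.32, edgeR adjusted p = 0.0161). DESeq2 called it in M222 with DMSO and in M512 with both treatments.

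In the 6 h libraries, which were scaled apart, COX7C had 242 to 280.5 CPM in IC DMSO, 259 to 306 CPM in IC sorafenib and 254 to 314 CPM across the I200c groups. Scaled together with IC, MC DMSO had 89.95, 178 and 100.1 CPM against 238, 250.2 and 279 CPM in IC DMSO, lower by 1.06 on the log2 scale (SE 0.32, edgeR adjusted p = 0.141). Without MC DMSO library 2 it was lower by 1.46 (edgeR adjusted p = 0.0252). Its 3′ UTR of 322 bases held no match to the seeds of the 2 mimics, and it held a match to miR-200c-3p at bases 202 to 208. In I200c it differed from IC by 0.10 with DMSO (edgeR adjusted p = 0.994).

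ATP5PB (ENSG00000116459, chr1:111448864-111462773, plus strand) encodes subunit b of the stalk that holds ATP synthase still. It had 95.3, 106 and 110.5 CPM in MC DMSO and 24.2, 85.8 and 30.1 CPM in M222 DMSO. With sorafenib it had 93.7, 121 and 133.5 CPM in MC and 42.8, 77.1 and 32.8 CPM in M222. All M222 libraries were lower than all MC libraries, with M222 library 2 closest to MC with both treatments. Of all genes, 7.45% were lower in this way with DMSO and 6.7% with sorafenib. In M512 it stayed at 97.3 to 127 CPM over both treatments, within the range of MC.

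The difference of ATP5PB between M222 and MC was −1.17 with DMSO (SE 0.35, edgeR adjusted p = 0.433) and −1.19 with sorafenib (0.448). Without M222 DMSO library 2 it was −1.92 with DMSO (edgeR adjusted p = 0.00265), whereas with sorafenib it passed in no fit that left out a library. Without the low-count filter it passed with both treatments (edgeR adjusted p = 0.0017 and 0.00107). Because ATP5PB was picked for its values, these fits and the match below are a description and lend it no support. ATP5PB was also one of the 8 members with a match to miR-222-5p, at bases 89 to 95 of its 1779-base 3′ UTR. The site is shown with its surroundings from GRCh38, the match in capitals:
ATP5PB: gttggtgtCTACTGAagttatag
The other 7 members with this match were NDUFA10, NDUFA9, NDUFS1, SDHD, UQCRB, ATP5F1A and ATP5MC3, and their differences with DMSO ran from −0.40 to 0.93.

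COX7B (ENSG00000131174, chrX:77899440-77907376, plus strand), another small complex IV subunit, was lowest with M512. It had 113, 159.9 and 134.5 CPM in MC DMSO, 148, 161 and 155 CPM in M222 DMSO and 82.1, 69.8 and 106 CPM in M512 DMSO. With sorafenib it had 121, 149 and 140.5 CPM in MC, 138, 152 and 173 CPM in M222 and 96.5, 103 and 109 CPM in M512. All M512 libraries were below all MC and M222 libraries of the same treatment. The difference between M512 and MC was −0.66 with DMSO (SE 0.19, edgeR adjusted p = 0.120) and −0.41 with sorafenib (0.417). DESeq2 called it with DMSO (adjusted p = 0.0262). Its annotated 3′ UTR held no match to the seed of miR-512-3p.

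**Figure D5:**
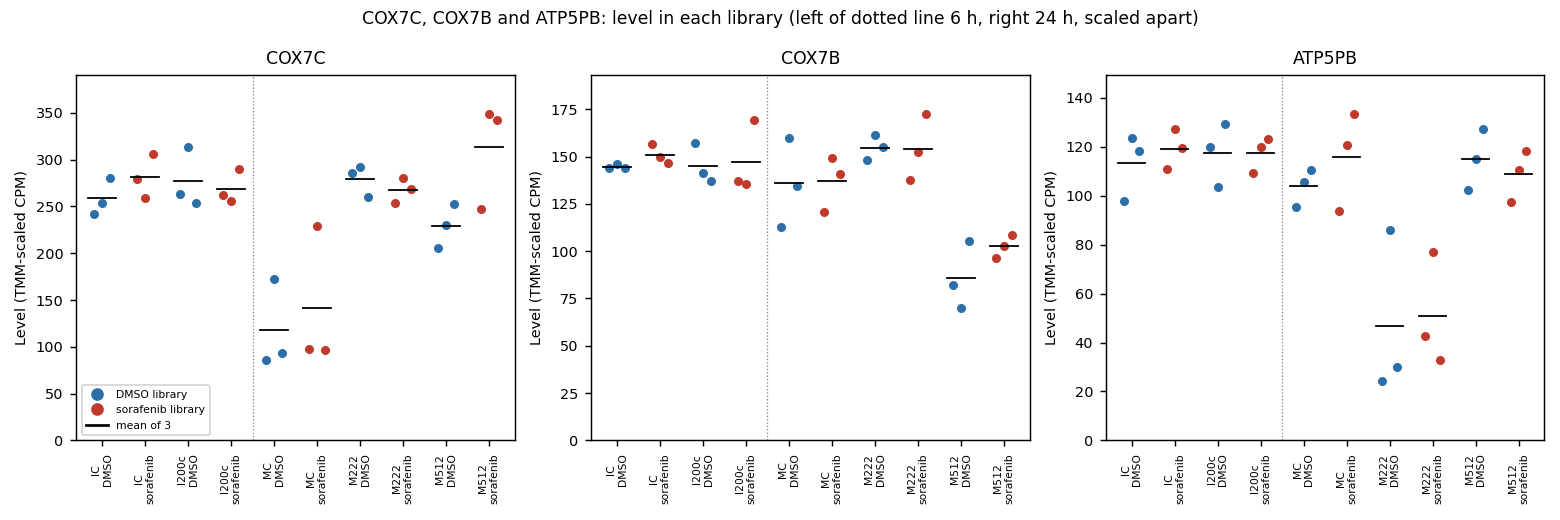
Level (CPM, TMM-scaled) of COX7C, COX7B and ATP5PB in each library by group; points are libraries, lines are means of 3, and the 6 h and 24 h libraries, left and right of the dotted line, were scaled apart. COX7C was low in MC (86.3 to 229 CPM), ATP5PB was low in M222 (24.2 to 85.8 CPM) and COX7B was low in M512 (69.8 to 109 CPM).

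With sorafenib, 61 of 81 members had a positive difference between M512 and MC and 20 a negative one, from −0.755 to 1.15, with a median of 0.192 beside −0.011 over all genes. The summed level overlapped between the groups. The members took 1.27, 1.36 and 1.70% of counts in M512 sorafenib and 1.28, 1.496 and 1.44% in MC sorafenib. Only M512 library 3 was above all MC libraries. The mean sum of all members was 14450 ± 2271 CPM (SD, n = 3) in M512 and 14050 ± 1137 CPM in MC. By complex, the means in M512 and MC were 4337 and 3965 CPM for I, 1867 and 1834 CPM for III, 2559 and 2555 CPM for IV, and 5559 and 5543 CPM for V. The complex II sum was lower in M512, at 125 ± 56.0 CPM (SD, n = 3) against 149 ± 43.4 CPM in MC. Scaled by total counts the medians were 0.0743 and −0.128. In complex I 31 of 37 members were positive, in complex V 14 of 18, in complex III 7 of 10, in complex II 3 of 4 and in complex IV 6 of 12. NDUFA8 went the other way, by −0.72 (edgeR adjusted p = 0.111).

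MC and IC with DMSO differ in the control oligonucleotide and in the time in DMSO, which cannot be told apart. By edgeR 0 of 80 members passed, against 0.632% of all genes, with 5 higher and 5 lower at an unadjusted p under 0.05 (12.5% of members against 15.8% of all genes), and DESeq2 called COX7C (3.54% of all genes). SDHD had the smallest p, with 7.08, 6.28 and 12.7 CPM in IC DMSO and 4.60, 2.00 and 1.38 CPM in MC DMSO. MC was lower in all libraries, by 1.66 on the log2 scale (SE 0.50, edgeR adjusted p = 0.110).

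Many respiratory chain genes are known to be controlled by NRF1 and by ETS factors such as GABPA. RefSeq promoters, from 250 bases before to 50 after the start, were at hand for 69 of the members. The NRF1 core GCATGCGC, read on both strands, was in 13 of them (18.8%), against 3.27% of all 27305 promoters and 5.83% of the promoters of tested genes. The ETS core CCGGAAG was in 20 (29%), against 10.7% and 20.4%, and 6 (8.7%) held both, against 0.685% and 1.47%. The core is shown in capitals for NDUFA8 and ATP5MC2, whose levels are given above, and for SDHB and COX5B, from complexes II and IV, 5′ to 3′ on the strand of the gene (GRCh38):
NDUFA8 (chr9:122159766-122159793, minus strand): gttgccggatGCGCATGCgcaggcgccg
SDHB (chr1:17054215-17054242, minus strand): agccaaatggGCATGCGCcgctactgcg
COX5B (chr2:97645916-97645943, plus strand): gcagagctggGCATGCGCaatttccgcc
ATP5MC2 (chr12:53676106-53676133, minus strand): cccgggtcacGCATGCGCtgagccttcc
In the promoter of NDUFA8 the core lies at the start itself. The promoter of NDUFA5 held neither core.

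Partners of the members moved as follows with sorafenib, by edgeR. Over all genes 0.0314% passed in IC, 2.39% in I200c, 2.69% in MC, 4.67% in M222 and 10.2% in M512. These shares apply to each list below. Of the 13 subunits made from mtDNA, 0 passed in IC, 1 fell in I200c, 1 rose and 2 fell in MC, 1 rose and 4 fell in M222, and 1 rose and 2 fell in M512. MT-CO1 was the one that rose, with changes of 1.26 for MC, 1.26 for M222 and 1.63 for M512. MT-ND3 fell in the same 3 transfections (−0.68, −0.97 and −1.09). MT-CO2 fell in M222 (−0.98) and M512 (−1.20), and MT-CO3 fell in M222 (−0.78). MT-ND5 fell in MC (−0.83) and M222 (−0.72), and MT-ND6 was the one that fell in I200c (−1.08). Neighbouring mtDNA genes are cut from shared transcripts, so counts near their borders are uncertain.

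Of 17 complex I assembly factors only NUBPL, which places iron-sulfur clusters in complex I, passed, and it fell in M512 (−0.98). Of 35 assembly factors of complexes II to V, 2 rose and 1 fell in M222 (COX17 by 1.32 and COX10 by 1.01, and COA3 with −0.96) and 2 rose and 1 fell in M512 (COX14 by 0.81 and COX10 by 0.95, and LYRM7 with −0.999). None of 23 electron carriers and companions, 21 genes of the tricarboxylic acid cycle, 15 regulators of respiratory gene transcription and 18 glycolysis genes passed in any of the 5 transfections by edgeR, with 0 to 3, 1 to 4, 0 to 3 and 0 to 4 of these genes at an unadjusted p under 0.05 in a transfection. Of 77 mitochondrial ribosomal protein genes, 1 passed in M222 and 2 in M512.

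The last list held mitochondrial chaperones and proteases and genes of the integrated stress response. Of 18 tested, 1 rose in I200c, 3 rose and 1 fell in MC, 4 rose and 0 fell in M222, and 4 rose and 2 fell in M512. DDIT3, a transcription factor of that response, rose by 1.70 in I200c and 2.40 in MC, and in MC TRIB3 rose by 1.69 and ASNS, which makes asparagine, by 2.21, while the protease SPG7 fell by 0.77. In M222 DDIT3 rose by 2.29, TRIB3 by 1.79, ASNS by 2.55 and ATF4 by 0.94. The rises of the same 4 genes in M512 were 2.40, 1.85, 2.51 and 1.18. In M512 OMA1, the protease of the inner membrane that reports stress, fell by 1.68 and the chaperone DNAJA3 by 0.98. These genes moved in the libraries in which members did, and their part in the members' changes was not tested.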

How the data were processed

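Messenger RNA of 30 HepG2 libraries was measured with QuantSeq 3′ FWD. The authors aligned reads with STAR to GRCh38 and counted them per gene with HTSeq in the Bluebee pipeline. Tool versions, the annotation release, the strand setting and whether molecular identifiers were used are not given in the sources used here. The deposited table holds raw counts, with 92 lines that name no gene (3 counts in all) left out. A normalised table, deposited beside it, holds counts over factors set within each transfection and was not used.

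Symbols, gene types, 3′ UTRs and positions came from GENCODE on GRCh38 (56104 identifiers matched, and 0.106% of counts were in genes without a symbol). Members and lists were chosen with earlier results of these data known. Total counts per library were 3938764 to 9657063. Replicate pairs differed by more than counting error (chi-square per degree of freedom 4.54 to 66.2), so no library was merged.

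Counts were tested with edgeR 4.0.16 in R 4.3.3 (robust quasi-likelihood fit, TMM scaling, low-count filter) in 3 fits: 12 libraries at 6 h (12738 genes), 18 at 24 h (13244 genes) and the 12 IC and MC libraries (12500 genes). Adjusted p-values are Benjamini-Hochberg values over all genes of a fit. Library numbers were taken as pairing only for M222 against MC with DMSO, where each same-numbered pair correlated above 0.1, though weakly (0.136, 0.147 and 0.120). The block was set over all libraries of a fit at once. It therefore also paired the other groups of that fit, where same-numbered pairs correlated down to −0.106. Elsewhere the block is given only as an alternative setting. Alternatives were RLE scaling, total counts, no filter, DESeq2 1.42.0, fits of single comparisons, the block and leaving out each library. The code was tested on simulated data. Library values are given for called members, for the member with the largest change or smallest p in each complex, and for members named by level. The spread of members and its relation to GC content were computed after the data were seen.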

Additional observations from a re-analysis of the deposited data

How the results depend on the processing

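Counts of called members depended on the settings as follows. With sorafenib in MC the count of 1 became 0 with RLE scaling, without a filter and in a fit of that comparison alone, 2 with total counts and with the replicate block, and 3 with DESeq2. Over all genes, 243 higher and 113 lower became 232 and 129 with RLE scaling and 398 and 229 without a filter. They became 172 and 84 in the fit alone and 173 and 180 with total counts. With the block they were 308 and 177, and with DESeq2 409 and 320. In M222 the count of 2 became 1 with total counts and without a filter and 3 with DESeq2. Over all genes, 399 higher and 220 lower became 299 and 338 with total counts. They became 529 and 318 without a filter and 582 and 446 with DESeq2. In M512 the count of 5 became 7 without a filter, 9 with DESeq2 and 10 with the block, while the share over all genes was 10.2% with the reported fit, 6.28% without a filter, 13.7% with DESeq2 and 12% with the block. In I200c the 0 became 1 without a filter. Over all genes, 120 higher and 184 lower became 206 and 290. For M222 against MC with DMSO the 0 became 2 without a filter and 1 with DESeq2 and with the block, and with sorafenib it became 2 without a filter. Over all genes with DMSO, 10 were higher and 31 lower without a filter, 8 and 25 with DESeq2, and 1 and 11 with the block. With sorafenib there were 4 and 24 without a filter. For M512 against MC with DMSO the 0 became 1 without a filter, 2 with DESeq2 and 1 with the block, and with sorafenib 3 without a filter, 3 with DESeq2 and 1 with the block. Over all genes with DMSO these fits gave 131 higher and 87 lower, 108 and 124, and 53 and 69. With sorafenib they gave 65 and 81, 87 and 150, and 33 and 71. For MC against IC the 0 became 3 without a filter and 1 with DESeq2. Over all genes these fits gave 208 higher and 315 lower, and 214 and 228. Calls over all genes shifted with the settings as well, so these shifts are no result about the members. Their cause was not tested. Outside M222 against MC with DMSO, same-numbered pairs did not all correlate above 0.1, and library numbers were not taken as pairing. For sorafenib against DMSO in M222 they correlated at 0.111, 0.080 and 0.058. For M512 against MC with sorafenib they correlated at 0.042, 0.053 and 0.137. In both comparisons the same-numbered library was the closest match each time. Other pairs went down to −0.106, for sorafenib against DMSO in MC. Whether the numbers mark a shared batch was not tested.

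With each library left out in turn, called members with sorafenib ranged from 0 to 2 for I200c and for MC, 0 to 3 for M222 and 3 to 9 for M512. They ranged from 0 to 1 for both mimics against MC with each treatment and for MC against IC, and were 0 in the other comparisons. The share over all genes is not given for these runs, so the ranges say nothing particular about the members. No named member changed its sign under any alternative run. Leaving mtDNA counts out of the denominator moved the median summed levels to 5246 CPM for complex I, 234.9 CPM for II, 2375 CPM for III, 3491 CPM for IV and 6929 CPM for V. Members below about 10 CPM and those with wide replicate spread could have changed without passing.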
